A study of Mus musculus with 32 samples.

Results

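The mitochondrial genome of the mouse encodes a small part of the respiratory chain, and the messenger RNAs described here are 10 of its transcripts: mt-Nd1, mt-Nd2, mt-Nd3, mt-Nd4, mt-Nd5, mt-Cytb, mt-Co1, mt-Co2, mt-Co3 and mt-Atp6. They were taken as the rows of the deposited count table whose Ensembl identifiers map to these symbols, 10 of 54418 rows, and no measured value entered the choice. All 10 were among the 5872 genes that had enough counts to be tested. Intestinal stem cells, sorted from mouse crypts as live CD326-stained cells with high GFP, were profiled by 3′ digital gene expression of polyadenylated RNA, which counts transcripts from fragments near the 3′ end. The 32 libraries form 8 groups of 4, each genotype on a control and on a high-fat diet. WT is the label's wild type, PparD carries floxed Ppard (Ppard-fl/fl), PparA is Ppara-null, and PparDA combines Ppard-fl/fl with Ppara-null. Every group has the strain label C57BL6. The sources used here do not give the driver of GFP, the recombination of floxed Ppard, the age of the animals or the length of feeding. Separate animals for the 4 libraries of a group are not stated either, so each p-value measures the spread between these samples. Sex-linked genes (below) place both sexes in every group, so the 4 libraries are not all from a single animal. The spread may otherwise be technical.

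As background, the respiratory chain is built from proteins of both genomes. The mitochondrial genome supplies core membrane subunits of complex I (the Nd genes), complex III (Cytb), complex IV (the Co genes) and the ATP synthase, complex V (Atp6 and Atp8), and nuclear genes supply the remaining subunits and all of complex II. Both strands of mitochondrial DNA are transcribed as long precursors, which are cut at the tRNAs that lie between most of the messages, so that the levels of mature messages depend on processing and turnover as well as on transcription. Fatty acid oxidation, which Ppara and Ppard control at the nuclear level, hands its electrons to this chain, and stem cells of the crypt are known for active mitochondrial respiration.

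The counts come from the 3′ ends, so the last 30 bases of each annotated gene are shown, 5′ to 3′, from the GENCODE M21 transcripts (GRCm38). Capitals mark the bases of the stop codon that the gene itself holds.
mt-Nd1: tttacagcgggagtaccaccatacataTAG
mt-Nd2: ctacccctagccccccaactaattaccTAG
mt-Nd3: acacaaaaaggattagaatgaacagagTAA
mt-Nd4: gtccaaaactaattacaggcctgacaataT
mt-Nd5: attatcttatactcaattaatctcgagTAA
mt-Cytb: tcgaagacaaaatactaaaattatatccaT
mt-Co1: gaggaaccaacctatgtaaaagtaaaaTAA
mt-Co2: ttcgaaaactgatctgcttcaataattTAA
mt-Co3: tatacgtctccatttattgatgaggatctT
mt-Atp6: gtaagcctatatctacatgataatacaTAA
In mt-Nd4, mt-Cytb and mt-Co3 the gene ends in a single T, and the stop codon is completed only when the poly(A) tail is added. The annotated genes of the other 7 members hold a full TAA or TAG. On the same strand, mt-Nd1 ends at base 3707, and the tRNA gene mt-Ti starts at 3706. Likewise, mt-Nd2 ends at 4951, and the tRNA gene mt-Tw starts at 4950. The ends of the mature messages were not mapped and may differ from these gene ends. The G and C content of the 10 messages lies between 33.0 and 39.9%. All 10 lie on the plus strand of the mitochondrial genome. Neighbouring genes share bases there: mt-Atp6 overlaps mt-Atp8 by 43 bases and mt-Co3 by 1 base, and mt-Nd4 overlaps mt-Nd4l by 7 bases. The 3′ end of mt-Nd5 overlaps mt-Nd6, on the other strand, by 14 bases, and the use of strand in the counting is not stated.

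Library totals ran from 612672 to 724155 counts. Levels are given as CPM, counts scaled to a library of 1e+06. Those of the mitochondrial genes are also divided by TMM factors, which adjust for the composition of each library, and those of markers are not. The sorted cells carried the stem cell markers Olfm4 (7430 to 13100 CPM) and Lgr5 (28 to 68.3 CPM). The leukocyte gene Ptprc was at 0 in 21 libraries and at no more than 4.28 CPM elsewhere, and the stromal gene Col3a1 was at 0 in all 32. The column names number the libraries from 1 to 32, in 4 runs of 8 that each hold every group once. Xist, expressed from the inactive X chromosome of females, stood at 489 to 964 CPM in runs 1 and 3 and at 0 to 9.4 CPM in runs 2 and 4, and the Y-linked Ddx3y at 0 and at 14.4 to 37.6 CPM, so this pairing of runs and sex cannot be told apart. Once group means were removed, the closest library across genes came from the same run for 31 of the 32. Ppara had 0 to 5 counts per library and Ppard 0 to 7, too few to check the genotype labels.

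The messages took a large share of each library. The 10 members held 11.33 to 16.02% of the counts of a library, with a median of 13.42%. In WT the share was 12.64, 13.43, 14.03 and 15.02% on the control diet and 11.49, 12.05, 12.79 and 13.42% on the high-fat diet. The means were 13.78 ± 1.01% (SD, n = 4) and 12.44 ± 0.84%, and the libraries of both diets overlapped. The mean was lower on the high-fat diet in each of the other genotypes as well, at 12.29 ± 0.80 against 13.09 ± 1.51% in PparD, 14.06 ± 0.61 against 14.39 ± 0.997% in PparA and 13.33 ± 1.38 against 14.07 ± 1.37% in PparDA. In each of these 3 genotypes the difference was smaller than the larger SD. Compared within a run, the high-fat library had the lower share in 4 of 4 runs in WT and in 3 of 4 in each of PparD, PparA and PparDA. The share also moved with the run, with medians of 13.38, 12.71, 14.74 and 13.84% in runs 1 to 4. In bulk RNA, fewer cells of a type and less RNA per cell cannot be told apart.

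**Figure D1:**
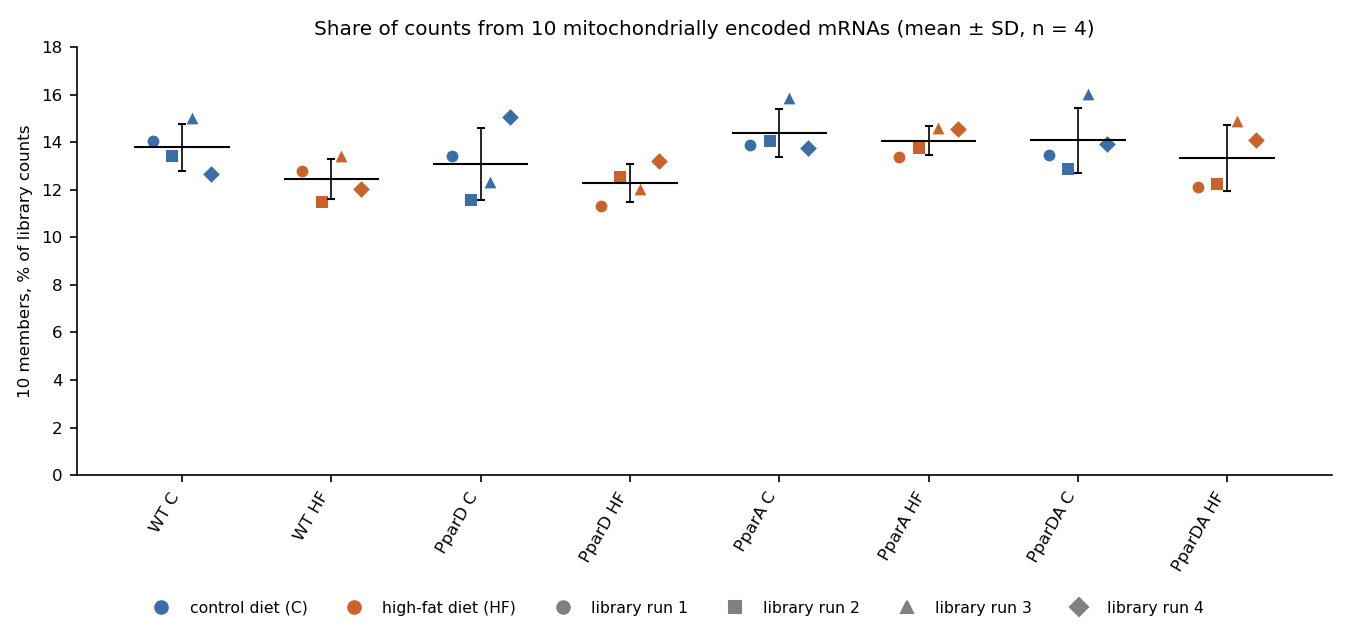
Share of each library's counts held by the 10 messages, in percent, by genotype and diet. Points are libraries (colour, diet; shape, run of library numbers), bars are the mean and SD of 4 libraries. Group means lie between 12.29 and 14.39%, and every control group overlaps its high-fat group.

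Most of these counts came from few messages. Of all counts on the members, mt-Cytb held 35.9%, mt-Co3 24.98%, mt-Atp6 19.3% and mt-Nd1 8.74%, while mt-Co2 held 4.72%, mt-Nd4 4.29% and mt-Nd2 1.33%. The mt-Co1, mt-Nd5 and mt-Nd3 rows held 0.384, 0.187 and 0.162%. These are shares of 3′-end counts, not divided by length, and do not rank the messages by abundance. The rows at the low end still had at least 78 counts (mt-Nd3), 116 counts (mt-Nd5) and 233 counts (mt-Co1) in every library.

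The messages differed in how steady they were between libraries of the same group. The complex IV messages mt-Co2 and mt-Co3 varied least together with mt-Nd4, with a within-group SD of 0.091, 0.107 and 0.112 on the log2 CPM scale. For mt-Nd1, mt-Nd2, mt-Atp6, mt-Nd5 and mt-Cytb it was 0.145 to 0.191. The mt-Nd3 and mt-Co1 rows varied most, at 0.292 and 0.314. The median biological coefficient of variation of the members was 12.3%, against 14.3% over all tested genes.

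**Figure D2:**
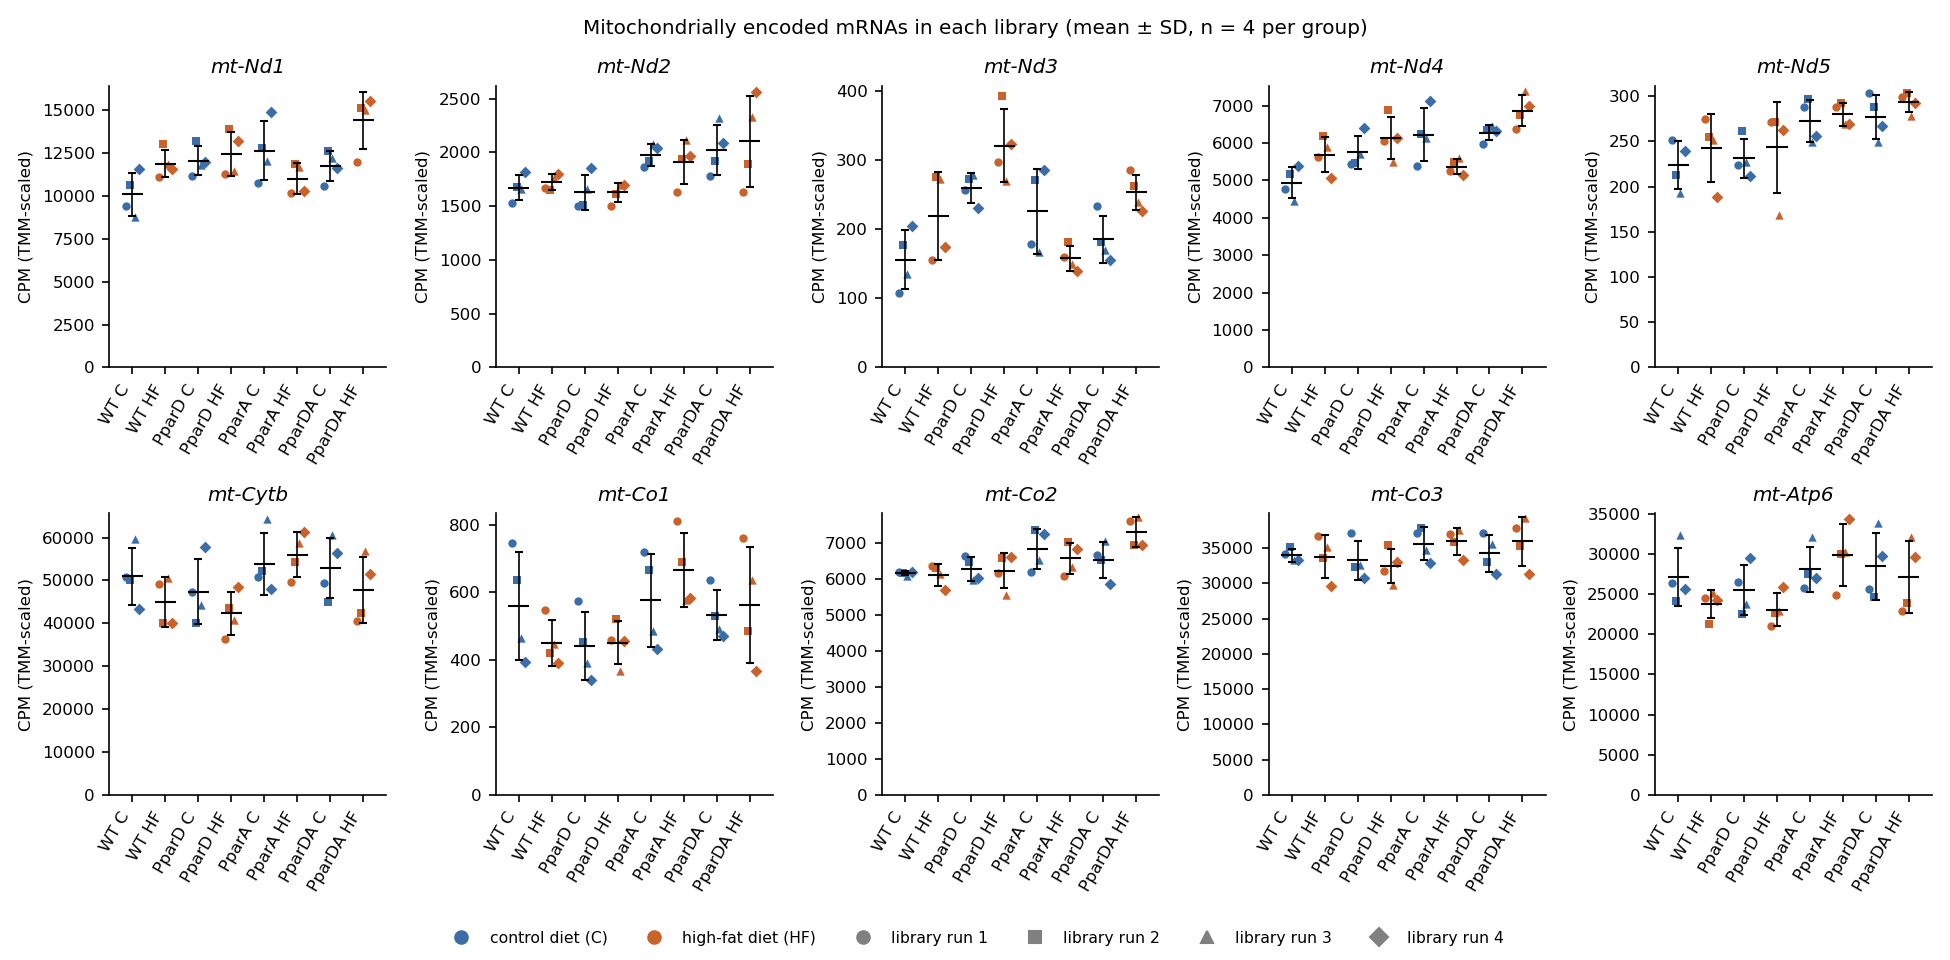
CPM of each message (linear axis from 0) in the 8 groups. Points are libraries (colour, diet; shape, run), bars the mean and SD of 4 libraries. mt-Co3 stays between 29650 and 39240 CPM, while mt-Nd3 runs from 107 CPM in a WT control library to 392 CPM in a PparD high-fat library.

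Within complex I, mt-Nd4 (chrM:10167-11544), a proton-pumping subunit of the membrane arm, had its lowest mean in WT on the control diet and its highest in PparDA on the high-fat diet. On the control diet the WT libraries stood at 4451, 4773, 5173 and 5381 CPM and the PparDA libraries at 5976, 6320, 6362 and 6446 CPM. With the high-fat diet, WT stood at 5067, 5628, 5890 and 6183 CPM and PparDA at 6367, 6750, 6979 and 7380 CPM. On either diet the highest WT library lay below the lowest PparDA library. In PparD the control values were 5449, 5463, 5697 and 6391 CPM and the high-fat values 5483, 6044, 6138 and 6873 CPM. In PparA they were 5393, 6137, 6249 and 7130 CPM and 5134, 5260, 5500 and 5595 CPM. PparA was the one genotype whose mean was lower with the high-fat diet. By mean the order was WT control (4945 ± 415 CPM, SD, n = 4), PparA high-fat (5373 ± 212), WT high-fat (5692 ± 475), PparD control (5750 ± 442), PparD high-fat (6134 ± 571), PparA control (6227 ± 712), PparDA control (6276 ± 207) and PparDA high-fat (6869 ± 424). The libraries of each group overlapped those of the next group in that order.

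mt-Nd1 (chrM:2751-3707), which encodes the subunit at the ubiquinone-binding site of complex I, had the same group at each end. WT control libraries held 8788, 9397, 10650 and 11570 CPM, and PparDA high-fat libraries 11960, 15010, 15120 and 15520 CPM. These 2 groups did not overlap. The means were 10100 ± 1250 and 14400 ± 1642 CPM, and the other 6 groups had means from 11000 to 12630 CPM. Each neighbouring pair of groups in the order of means overlapped.

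mt-Nd3 (chrM:9459-9806) encodes a small complex I subunit and had the widest range, a ratio of 2.06 between the highest and the lowest group mean. WT control libraries held 107, 135, 177 and 204 CPM and PparD control libraries 231, 256, 272 and 279 CPM. PparD high-fat libraries, at 270, 296, 323 and 392 CPM, had the highest mean (320 ± 52.6 CPM), and WT control libraries the lowest (156 ± 42.9 CPM). In PparA the control values were 167, 179, 271 and 286 CPM and the high-fat values 140, 150, 160 and 181 CPM, which overlapped.

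The other complex I messages, mt-Nd2 and mt-Nd5, which encode further proton-pumping subunits, had group means of 1628 to 2103 CPM and 224 to 293 CPM. For mt-Cytb, the cytochrome b of complex III, the means ran from 42340 to 56020 CPM, and for mt-Atp6, the channel subunit of the ATP synthase, from 23080 to 29870 CPM. Both had the lowest mean in PparD and the highest in PparA, each on the high-fat diet. Of the 3 catalytic-core subunits of complex IV, mt-Co3 and mt-Co2 moved least of the 10: the ratio of the highest to the lowest group mean was 1.11 for mt-Co3 (32480 to 35930 CPM) and 1.19 for mt-Co2 (6126 to 7305 CPM). The mt-Co1 row had a ratio of 1.51, second to mt-Nd3.

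The mt-Co1 row is not a measure of that message on its own. Cytochrome c oxidase subunit 1 is the part of complex IV that holds the oxygen-binding site, and the row for it (chrM:5328-6872) held 11049 counts over the 32 libraries. Gm29216, annotated as an unprocessed pseudogene on the minus strand of chromosome 1 (chr1:24615706-24616197, GRCm38), held 168112. Of the 492 bases of Gm29216, 483 align to the 3′ end of mt-Co1 with 1 difference, A1066T, counted from 1 at the first base of mt-Co1 (mt-Co1 has A, the copy T). The 2 sequences around that base are shown because they hold the one position, in capitals, that separates the aligned parts.
mt-Co1: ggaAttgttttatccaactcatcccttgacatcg
Gm29216: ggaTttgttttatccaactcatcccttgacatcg
The last 479 bases are the same in both, so a fragment from there cannot be told apart by its sequence. Gm29216 took 89.89 to 95.82% of the counts of both rows together (93.82 ± 1.32%, SD over 32 libraries). The split moved with the run, with medians of 92.8, 93.0, 94.8 and 94.7% in runs 1 to 4, and so did the mt-Co1 row, at means of 656, 550, 482 and 429 CPM.

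**Figure D3:**
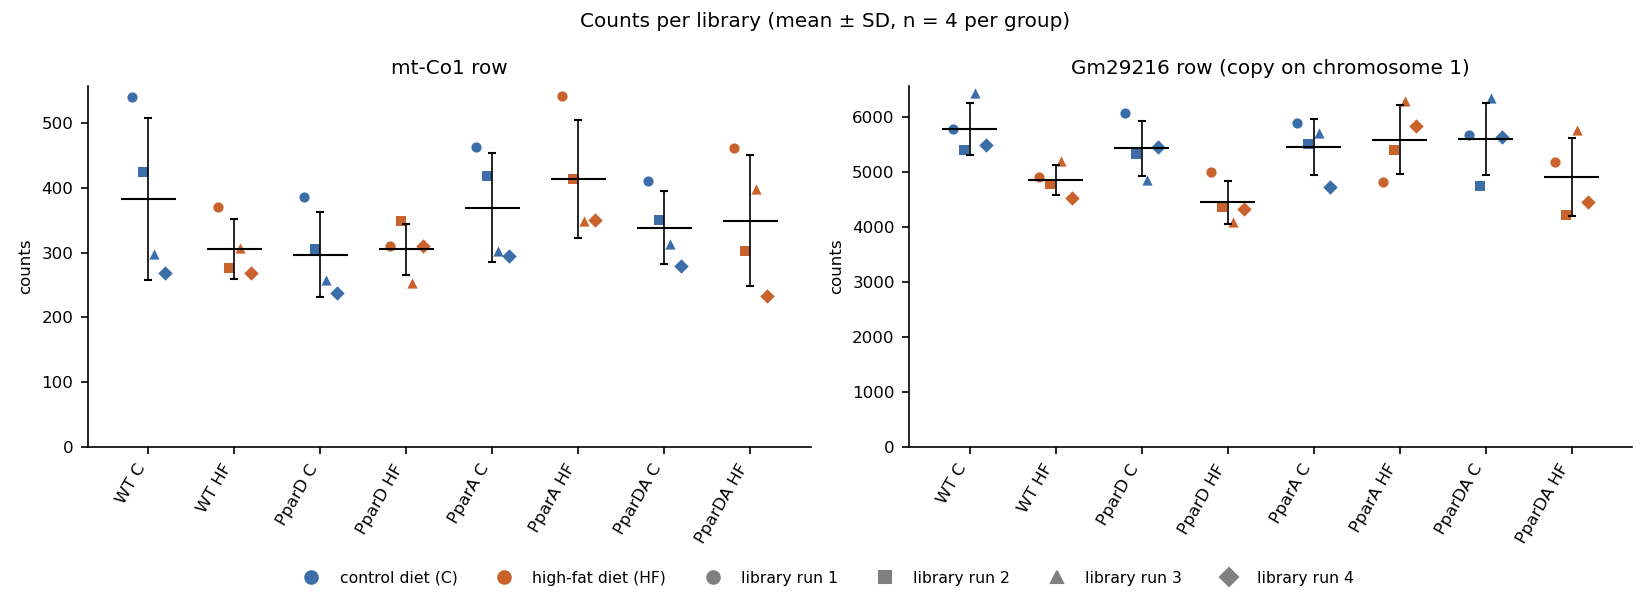
Counts per library on the mt-Co1 row (left) and on the row of its near-identical copy Gm29216 (right), by group, on separate linear axes from 0. Points are libraries (colour, diet; shape, run), bars the mean and SD of 4 libraries. The copy's row holds 4084 to 6438 counts where the mt-Co1 row holds 233 to 542.

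The sum of both rows stood at 6290 to 10940 CPM, and its group means ran from 6996 ± 659 CPM in PparD high-fat to 9724 ± 1260 CPM in PparA high-fat. A search of the annotated transcripts found 16 near-identical nuclear copies of mitochondrial genes, at 90% identity or more over at least 150 bases, 14 of them copies of members. Of these 16, 5 were identical over their aligned bases (Gm28439 to mt-Nd4, Gm28437 to mt-Co3, Gm28661 to mt-Co2, Gm10925 to mt-Atp6 and Gm10222 to mt-Nd4l), and all 5 had 0 counts. The 15 copies other than Gm29216 held 385 counts together, and the highest, Gm13341, held 109. The rows of the other 9 members therefore carried nearly all counts that fit either sequence, though for the identical copies the sequence does not tell the source.

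In stem cells of PparDA mice on the control diet, mt-Nd4 was higher than in WT. In the main fit, which leaves out the run, this was the only one of the 10 messages to pass the test against WT on either diet. Further calls with the run as a factor are given below. The log2 fold change was 0.34 ± 0.087 (SE, 4 against 4 libraries, edgeR adjusted p = 0.0324), from 4945 to 6276 CPM, with no overlap of the libraries. Of the 10 members 1 was called, where 1.87% of all tested genes were called in this comparison. In all, 9 members were higher and the mt-Co1 row lower, with a median log2 fold change of 0.15 against 0.003 over all tested genes. The sum of the mt-Co1 and copy counts was at 0.05 ± 0.12. The complex I messages mt-Nd5 (0.30 ± 0.13, edgeR adjusted p = 0.26) and mt-Nd2 (0.28 ± 0.11, adjusted p = 0.237) had the next largest values and were not called, and mt-Cytb, mt-Co3 and mt-Atp6 lay between 0.01 and 0.07.

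The mt-Nd4 call rested on single libraries. It was lost without WT control library 1, 9 or 17 (edgeR adjusted p = 0.0877, 0.0571 and 0.126) or PparDA control library 15, 23 or 31 (0.0687, 0.074 and 0.0768), and kept without library 7 or 26 (0.0372 and 0.0281), with a log2 fold change of 0.30 to 0.39 throughout. With the run as a factor it was 0.35 ± 0.079 (adjusted p = 0.0119), and mt-Nd2 was called as well (0.27 ± 0.076, adjusted p = 0.0449), where 2.81% of all genes were called. Within runs 1 and 3 it was 0.43 ± 0.11 (adjusted p = 0.13), and within runs 2 and 4 it was 0.28 ± 0.15 (adjusted p = 0.586). Markers of other cells moved with this comparison. The summed CPM of 11 of 11 measured enterocyte markers was 1410 to 1630 in WT and 2180 to 2550 in PparDA, that of 9 goblet markers 734 to 2390 and 1510 to 3560, that of 12 Paneth markers 6640 to 17000 and 6820 to 44700, and that of 8 enteroendocrine markers 72.3 to 142 and 130 to 308. Of single markers, goblet Clca1 (2.49 on the log2 scale, edgeR adjusted p = 0.0228) and Zg16 (2.57, adjusted p = 0.0347) and enteroendocrine Reg4 (1.49, adjusted p = 0.0428) were called higher in PparDA. The stem marker sum was 8270 to 12900 in WT and 10200 to 12700 in PparDA. Their part in the mt-Nd4 difference was not tested.

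On the high-fat diet all 10 messages had higher fitted values in PparDA than in WT, and none was called, where 1.57% of all genes were. The median was 0.26 on the log2 scale, against 0.01 over all tested genes. The smallest adjusted p was that of mt-Co2, a complex IV subunit that carries electrons from cytochrome c. It stood at 5693, 6134, 6309 and 6367 CPM in WT and at 6944, 6956, 7604 and 7718 CPM in PparDA. The groups did not overlap, and the log2 fold change was 0.25 ± 0.077 (edgeR adjusted p = 0.0992). DESeq2 called it (adjusted p = 0.036), and edgeR with the run as a factor called mt-Nd1 instead (0.27 ± 0.075, adjusted p = 0.0488, 2.18% of all genes called). Of the 11 enterocyte markers, 9 were also higher in PparDA here, none called, with a median of 1.95 and sums of 2000 to 3780 CPM in WT and 1850 to 3930 CPM in PparDA. The stem marker sum was lower in PparDA here, at 9110 to 10900 CPM (median 10200) against 10500 to 12700 CPM (median 11800) in WT. The part of these markers in the differences was not tested.

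PparA against WT gave the same direction on the control diet for all 10 rows, none called, where 0.562% of all genes were. The sum of the mt-Co1 and copy counts was at −0.002 ± 0.12. The median of the 10 was 0.20 (0.01 over all genes), and mt-Nd4 came nearest, at 0.33 ± 0.087 (edgeR adjusted p = 0.0816). Its lowest PparA library, at 5393 CPM, lay just above the highest WT library, at 5381 CPM. It was called without PparA control library 5 (0.40 ± 0.09, adjusted p = 0.029), by DESeq2 (adjusted p = 0.0251) and with the run as a factor (0.33 ± 0.079, adjusted p = 0.0349), where mt-Nd1 was called too (0.32 ± 0.075, adjusted p = 0.0314, 0.903% of all genes). All 11 enterocyte markers were higher in PparA as well, none called, with a median of 2.16, and their sums were 1410 to 1630 CPM in WT and 1280 to 5000 CPM in PparA. The stem marker sum was 8270 to 12900 CPM in WT and 10700 to 13800 CPM in PparA. The part of these markers was not tested. These genotype comparisons share their 4 WT libraries with those of PparDA and PparD.

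On the high-fat diet the largest difference between PparA and WT lay on the mt-Co1 row. It stood at 390, 419, 447 and 546 CPM in WT and at 576, 584, 689 and 809 CPM in PparA, without overlap, a log2 fold change of 0.56 ± 0.21 (edgeR adjusted p = 0.251). No member was called, where 0.749% of all genes were. With the run as a factor the mt-Co1 row was called (0.55 ± 0.13, adjusted p = 0.0203, 1.58% of all genes), as it was with no filter on low counts (0.54 ± 0.14, adjusted p = 0.0155). The sum of the mt-Co1 and copy counts differed by 0.36 ± 0.12 and was not called (adjusted p = 0.177). mt-Nd3, at −0.47 ± 0.20, was the lowest of the 10 (edgeR adjusted p = 0.321). The stem marker sum was 10500 to 12700 CPM in WT and 9260 to 10900 CPM in PparA. The enterocyte marker sum was 2000 to 3780 CPM in WT and 1660 to 5980 CPM in PparA. The part of these markers in the differences was not tested.

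In PparD no message was called against WT on the control diet (0.204% of all genes called) or on the high-fat diet (0.017%). mt-Nd3 had the largest difference on both, at 0.74 ± 0.20 (edgeR adjusted p = 0.201) and 0.55 ± 0.19 (adjusted p = 0.946). On the control diet its PparD libraries all lay above its WT libraries. The control-diet difference was called by DESeq2 (0.73 ± 0.20, adjusted p = 0.0345) and by edgeR with no filter on low counts (0.74 ± 0.16, adjusted p = 0.0024). The other 9 members lay between −0.35 (the mt-Co1 row) and 0.25 (mt-Nd1) on the control diet. There the sum of the mt-Co1 and copy counts was at −0.10 ± 0.12.

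**Figure D4:**
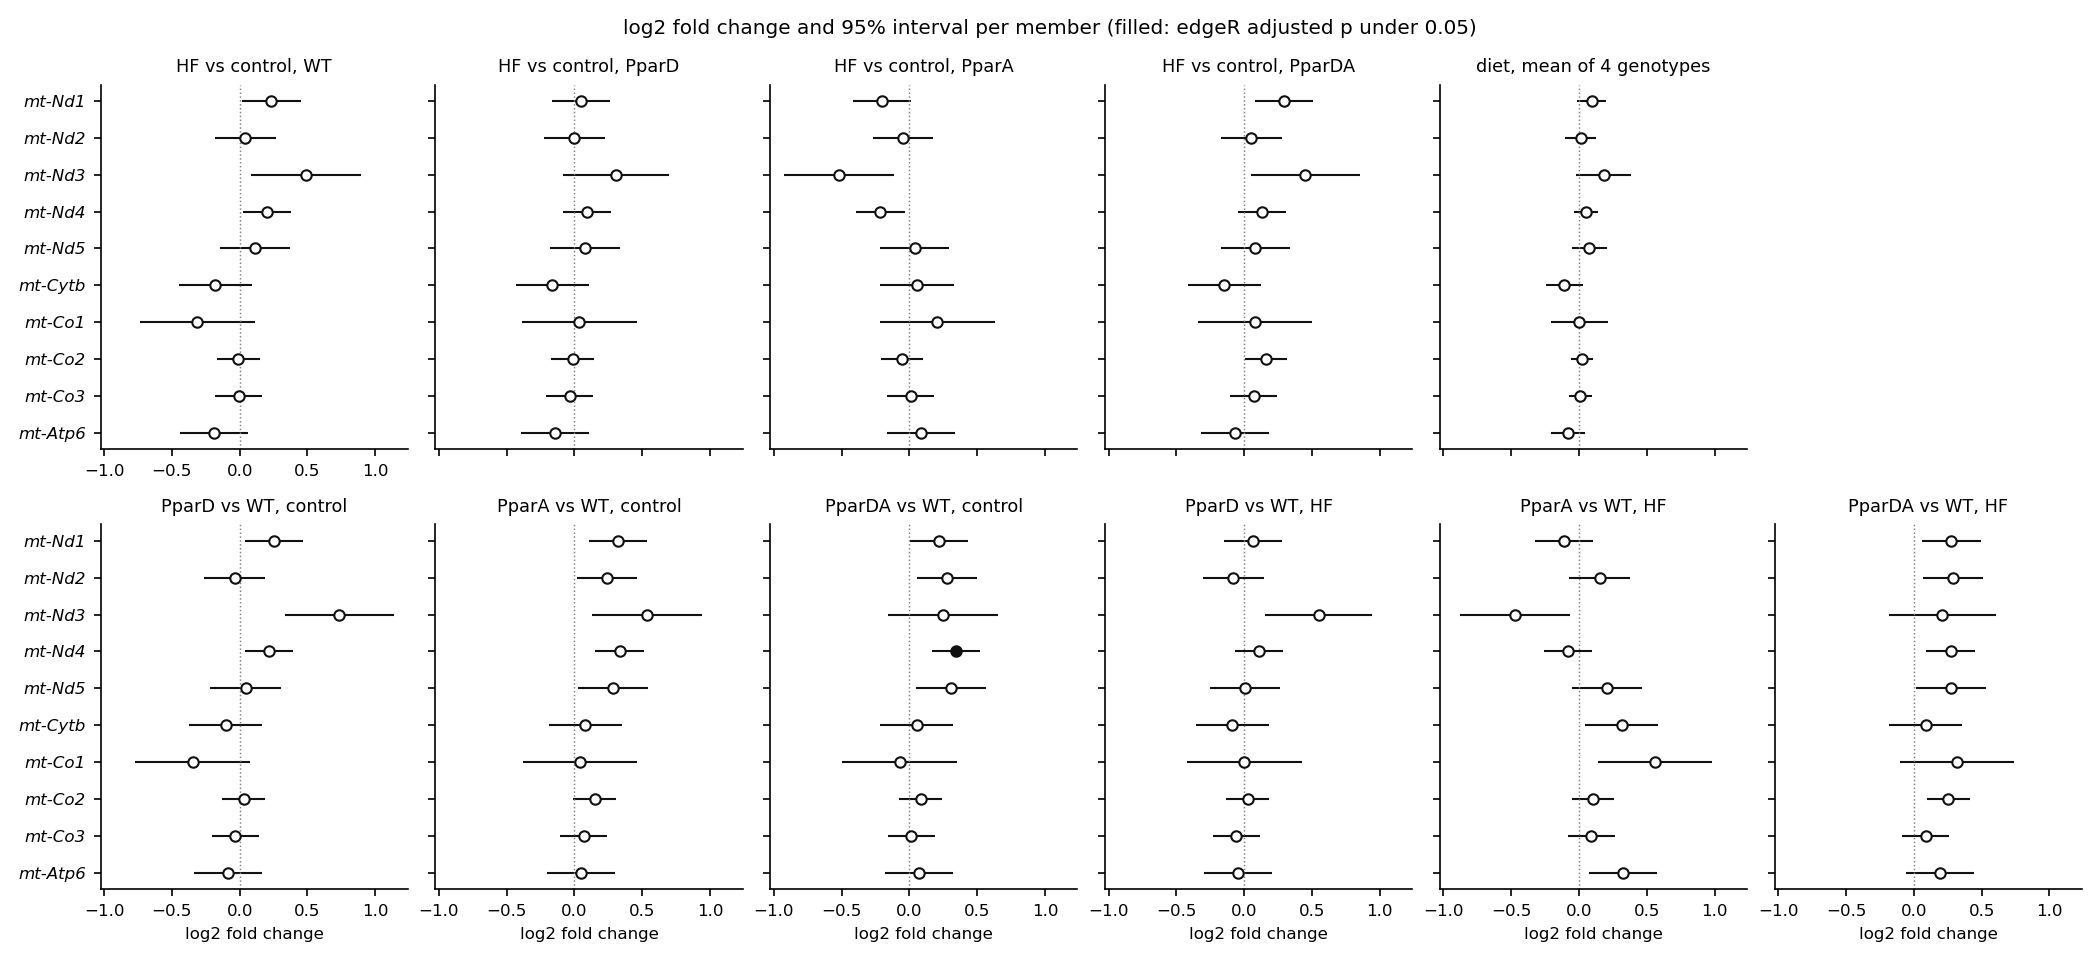
log2 fold change of each message with its 95% interval (edgeR quasi-likelihood fit), for the diet within each genotype and averaged over genotypes (top) and for each mutant against WT on each diet (bottom). The filled circle, mt-Nd4 in PparDA against WT on the control diet (0.34), is the only call in this fit, which leaves out the run.

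The high-fat diet changed none of the 10 messages past the threshold. No member was called in WT (0.102% of all genes called), PparD (0.0851%), PparA (0.136%) or PparDA (0.0341%), nor in the diet effect averaged over the 4 genotypes (0.324%). At an unadjusted p under 0.05 there were 3, 0, 2, 3 and 0 members in these 5 comparisons, and 450, 293, 340, 516 and 531 of the 5872 genes. DESeq2 also called 0 members in each. So did edgeR with the run as a factor, where 0.119, 0.238, 0.307, 0.153 and 0.749% of all genes were called.

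The averaged effect of the diet was narrowly bounded for most messages. Its 95% interval was −0.08 to 0.10 on the log2 scale for mt-Co3 and −0.06 to 0.10 for mt-Co2. For mt-Cytb it was −0.24 to 0.03 and for mt-Atp6 −0.20 to 0.05. The widest intervals were those of the mt-Co1 row (−0.21 to 0.21) and of mt-Nd3 (−0.02 to 0.38), and for mt-Nd1 it was −0.01 to 0.20. The signs of these values moved with the scaling: 8 of 10 members were higher with TMM factors and 4 of 10 with library totals alone, where the median over all genes itself moved to −0.05.

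Within each genotype, the complex I messages mt-Nd3, mt-Nd1 and mt-Nd4, singled out after their values were seen, had diet values of the opposite sign to mt-Cytb and mt-Atp6, although none passed the test. In WT the diet values were 0.49 ± 0.20 for mt-Nd3, 0.23 ± 0.11 for mt-Nd1 and 0.20 ± 0.087 for mt-Nd4, against −0.18 ± 0.13 for mt-Cytb and −0.19 ± 0.12 for mt-Atp6 (edgeR adjusted p = 0.564 to 0.825). In PparDA they were 0.45 ± 0.20, 0.29 ± 0.11 and 0.13 ± 0.087, against −0.15 ± 0.13 and −0.07 ± 0.12 (adjusted p = 0.379 to 0.934). In PparD they were 0.30 ± 0.19, 0.05 ± 0.105 and 0.09 ± 0.087, against −0.16 ± 0.13 and −0.15 ± 0.12 (adjusted p = 0.999 for each). In PparA the signs were the reverse, at −0.52 ± 0.20, −0.20 ± 0.11 and −0.21 ± 0.087, against 0.06 ± 0.13 and 0.09 ± 0.12 (adjusted p = 0.712 to 0.998). The other complex I messages did not share this pattern throughout: mt-Nd5 was above 0 in all 4 genotypes, at 0.04 ± 0.13 in PparA, and mt-Nd2 lay between −0.05 and 0.05.

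The tests of these differences did not pass. The diet effect in PparA less that in WT was −1.01 ± 0.28 for mt-Nd3 (edgeR adjusted p = 0.281), −0.43 ± 0.15 for mt-Nd1 (adjusted p = 0.43) and −0.42 ± 0.12 for mt-Nd4 (adjusted p = 0.362). No member was called there, where 0.153% of all genes were (0.375% with the run as a factor, again with no member). With no filter on low counts mt-Nd3 was called (−1.03 ± 0.23, adjusted p = 0.00378). No member was called either for PparD less WT (0.0511% of all genes called) or PparDA less WT, where edgeR called 0 of all genes (339 had an unadjusted p under 0.05, with 0 members among them) and 4 (0.0681%) with the run as a factor.

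The balance between messages can also be read within a library, free of scaling between libraries. mt-Nd1 counts were 14.73 to 35.6% of mt-Cytb counts, a ratio chosen after its values were seen and given without a test. In PparDA it was 20.11, 20.57, 21.33 and 28.01% on the control diet and 26.41, 29.56, 30.13 and 35.6% on the high-fat diet. In WT it was 14.73, 18.53, 21.3 and 26.68% against 22.57, 23.45, 28.87 and 32.47%. In PparD it was 25.99 ± 5.27% on the control and 29.53 ± 2.23% on the high-fat diet (SD, n = 4), and in PparA 23.85 ± 5.29 and 19.75 ± 2.11%. The means were thus higher with the high-fat diet in WT, PparD and PparDA and lower in PparA, with overlapping libraries in each. Within a run, the high-fat library had the higher ratio in 4 of 4 runs in WT, 4 of 4 in PparDA, 3 of 4 in PparD and 1 of 4 in PparA.

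Across runs, mt-Nd1 was higher in runs 2 and 4 than in runs 1 and 3. The 16 libraries of runs 2 and 4 had a lowest value of 10310, a median of 12720 and a highest value of 15520 CPM, and those of runs 1 and 3 had 8788, 11360 and 15010 CPM. The ranges overlapped, and the mean of runs 2 and 4 was the higher in 8 of 8 groups. The log2 fold change was 0.17 ± 0.037 (edgeR adjusted p = 0.00869), 1 of 10 members called where 2.61% of all genes were. It was called in each of the 8 other settings run for it and without any 1 of the 32 libraries (0.153 to 0.185, adjusted p = 0.00327 to 0.0171). Each run has its own term in this and every other fit of the run pairs. The p-values therefore leave out the spread between the runs of a pair, and leaving out single libraries does not test that spread. Paneth cell markers moved with the same contrast: 8 of 12 were called higher in runs 2 and 4, with a median of 1.23 over the 12 (Lyz1 1.46, edgeR adjusted p = 0.00111). Their sum was 3000 to 45400 CPM (median 8130) in runs 1 and 3 and 4240 to 44700 CPM (median 17400) in runs 2 and 4. Their part in the mt-Nd1 difference was not tested.

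Other rows went the other way between the run pairs. The mt-Co1 row was at −0.21 ± 0.064 (edgeR adjusted p = 0.0872) and higher in runs 2 and 4 in 1 of 8 groups. It was called without PparD high-fat library 4 (adjusted p = 0.0473) or 28 (adjusted p = 0.0404), with library totals as the only scaling (adjusted p = 0.0474) and by limma on the deposited log2 values (adjusted p = 0.0429). The sum of the mt-Co1 and copy counts was at −0.13 ± 0.053 and was not called (edgeR adjusted p = 0.208). mt-Atp8, whose end overlaps mt-Atp6 and which is no member, was lower in runs 2 and 4 (−0.41 ± 0.074, adjusted p = 0.00104), with means of 244, 146, 142 and 132 CPM in runs 1 to 4. Run 1 thus stood apart for mt-Atp8 from run 3, of the same sex, while run 3 lay near runs 2 and 4. For mt-Nd1 the means were 10800, 12900, 11860 and 12580 CPM in runs 1 to 4. With 2 runs for each sex, a difference between these run pairs and one between the sexes cannot be told apart.

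Although they come from shared precursors, the 10 messages did not vary as a block, and less plainly so once differences between runs were removed. With group means removed from log2 CPM, Pearson's r over the 32 libraries was positive for 28 and negative for 17 of the 45 pairs, from −0.70 to 0.90 with a median of 0.14. Differences between runs are still part of these values. With the run removed as well, most pairs were positive, from −0.40 (mt-Atp6 and mt-Nd3) to 0.87. The points share library, depth and scaling, and the values are a description. mt-Atp6 and mt-Cytb moved together most closely (r = 0.898, Spearman's rho = 0.89), and r stayed at 0.871 with the run removed as well. mt-Nd1 and mt-Nd4 formed another close pair (0.768, and 0.731 with the run removed). mt-Atp6 and mt-Co3, which overlap by 1 base, were at −0.13, and at 0.34 with the run removed. The mt-Nd2 and mt-Co1 rows opposed each other (−0.705), and r was −0.13 once the run was removed: mt-Nd2 means were 1638, 1764, 1953 and 1977 CPM in runs 1 to 4 while those of mt-Co1 went the other way.

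**Figure D5:**
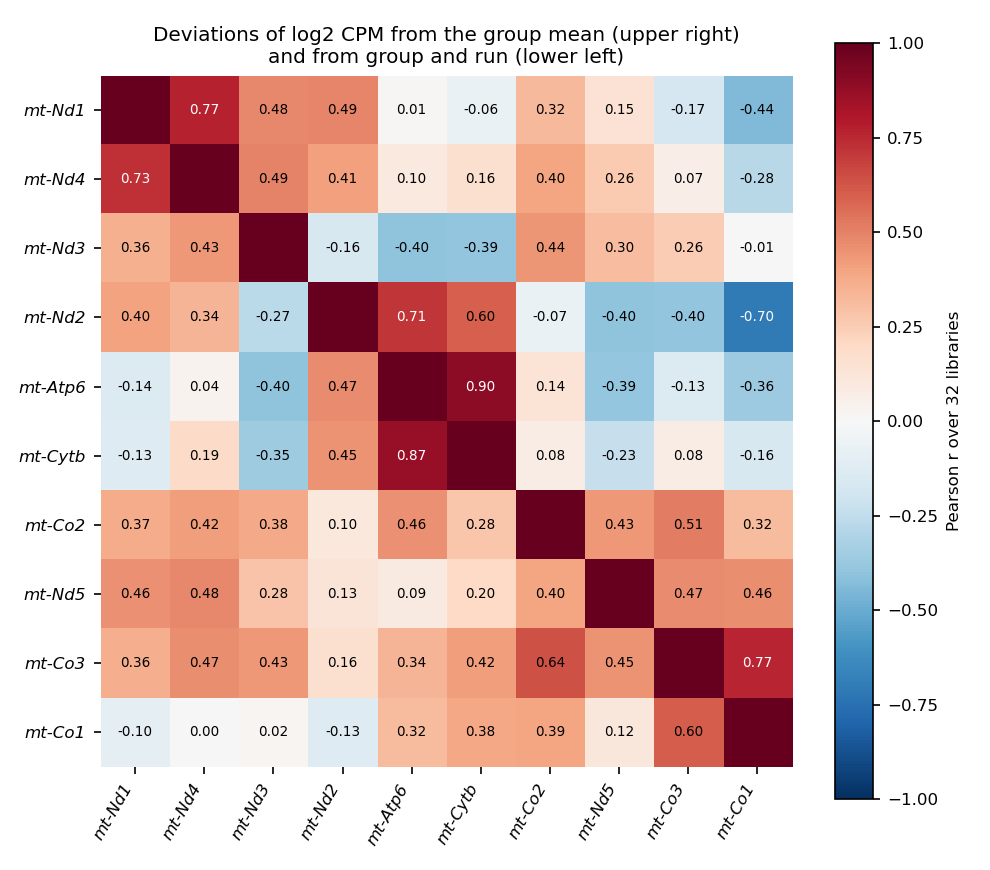
Pearson's r between the 10 messages over 32 libraries, after removal of group means (upper right) or of group and run means (lower left) from log2 CPM. mt-Atp6 with mt-Cytb (0.90 and 0.87) and mt-Nd1 with mt-Nd4 (0.77 and 0.73) stand high on both sides of the diagonal.

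Among the 27 other genes of the mitochondrial genome, 5 had enough counts to be tested. They were the ribosomal RNAs mt-Rnr1 and mt-Rnr2 and the protein-coding genes mt-Atp8, mt-Nd4l and mt-Nd6. mt-Atp8 overlaps mt-Atp6, and mt-Nd4l overlaps mt-Nd4, on the same strand. Whether their rows count messages apart from those of these members was not tested. mt-Rnr1 was higher in PparDA than in WT on the high-fat diet, at 6102, 6914, 8017 and 8642 CPM against 3184, 3837, 5046 and 6383 CPM (log2 fold change 0.69 ± 0.18, edgeR adjusted p = 0.0411). The groups overlapped by 1 library each. The call was lost without WT high-fat library 2, 10 or 25 or PparDA high-fat library 8, 16 or 24 (adjusted p = 0.0631 to 0.186), and with library totals as the scaling (0.054). With the run as a factor its adjusted p was 0.00742. No other of the 5 was called in any diet, genotype or diet-difference comparison without the run. In PparA against WT on the high-fat diet mt-Atp8 differed by 1.04 ± 0.29 (adjusted p = 0.0913) and mt-Rnr1 by 0.62 ± 0.18 (adjusted p = 0.0958), and both were called with the run as a factor (adjusted p = 4.3e-05 and 0.0232). With that factor mt-Rnr2 was called in PparDA against WT on the high-fat diet (0.44 ± 0.12, adjusted p = 0.0428) and mt-Atp8 in the diet effect in PparA less WT (0.98 ± 0.21, adjusted p = 0.0265). Without it they were at 0.46 ± 0.16 (adjusted p = 0.165) and 1.03 ± 0.41 (adjusted p = 0.522). On the high-fat diet the enterocyte markers had a median of 1.95 in PparDA and of 2.15 in PparA against WT. Their sums were 2000 to 3780 CPM in WT, 1850 to 3930 CPM in PparDA and 1660 to 5980 CPM in PparA. The stem marker sums were 10500 to 12700 CPM in WT, 9110 to 10900 CPM in PparDA and 9260 to 10900 CPM in PparA. The part of both marker sets was not tested. The message mt-Nd6, the one protein-coding gene of the other strand, had 5 to 20 counts per library. The 22 tRNA rows had at most 11 counts in any library.

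Of the nuclear genes that make, process and translate mitochondrial RNA, 1 was called, Oxa1l. None of 12 tested genes of mitochondrial DNA transcription and replication, 17 of RNA processing and stability and 6 regulators of mitochondrial biogenesis was called in any of the 15 comparisons. Of 9 tested translation genes, this one, which inserts mitochondrially made proteins into the inner membrane, rose in PparDA against WT on both diets (1.93 ± 0.31, edgeR adjusted p = 0.000334 on the control and 1.77 ± 0.31, adjusted p = 0.00164 on the high-fat diet). The other 8 were not called in any comparison. Of all tested genes, 1.87 and 1.57% were called in PparDA against WT on the control and the high-fat diet. Across the 15 comparisons the share was 0 to 2.61%. At such shares, few calls would fall in lists of this size.

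The 79 nuclear genes of complexes I to V, all tested, gave 0 calls in every diet comparison. There 0.0341 to 0.324% of all genes were called. Their median diet values were 0.05 in WT (51 of 79 higher), 0.10 in PparD (74), −0.06 in PparA (19) and 0.12 in PparDA (63), against medians of all genes of −0.006 to −0.002. The members' medians were 0.02, 0.02, −0.02 and 0.08. Against WT, 1 of the 79 was called: Cox6a1, a nuclear subunit of complex IV, was lower in PparA on the high-fat diet (−0.79 ± 0.19, edgeR adjusted p = 0.039), a call lost without WT library 10 or 18 or PparA library 14, 22 or 30 (adjusted p = 0.0583 to 0.191). Of all genes, 0.749% were called in PparA against WT on the high-fat diet, and 0.017 to 1.87% across the comparisons with WT. In PparDA against WT on the high-fat diet 41 of 79 nuclear genes were higher, with a median of 0.01. All 10 members were higher there, with a median of 0.26. Between the run pairs 2.61% of all genes were called. Cox7c of complex IV was lower in runs 2 and 4 (−0.26 ± 0.043, edgeR adjusted p = 0.000371), also without any 1 library. Ndufb11 and Atp5j were lower and Cox8a higher, and these 3 calls were lost without any of 2, 8 and 16 single libraries (adjusted p up to 0.0736).

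The genes most like the summed members were sought among 5856 tested genes outside the mitochondrial genome and its copies, by Pearson's r between their log2 CPM, over the counts outside those genes, and the log2 member sum, with group means removed, over 32 libraries. The highest were Nup188 (0.817), Snw1 (0.779), Dazap2 (0.755), Sec62 (0.75) and Esrp1 (0.748). The lowest were Txn1 (−0.854), Rpl22 (−0.84), Atp5d (−0.838), Bzw2 (−0.81) and Noc2l (−0.801). Atp5d, a nuclear subunit of the ATP synthase, thus stood among the genes that were low in libraries where the mitochondrial messages were high. With the run removed as well, all 10 lay between 0.617 and 0.733 or between −0.815 and −0.691. The points share library and depth, and the values are a description.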

How the data were processed

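Polyadenylated RNA of sorted intestinal stem cells was counted in 32 libraries. The authors deposited expected counts per gene, rounded to whole numbers, and a table of log2(CPM + 1) values. Salmon 1.1.0, R 4.0.2, edgeR 3.30.2 and the build mm10 stand in the submitters' processing notes, without their roles. Molecular identifiers, strand use and annotation release are not stated.

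Groups came from the column names, which carry no replicate number. Identifiers were matched to GENCODE M21 (54166 of 54418). Genes were kept by filterByExpr (minimum count 10, minimum total 15; 97.1 to 97.7% of counts) and scaled by TMM (0.938 to 1.07). One coefficient per group was fitted to all 32 libraries with edgeR 4.0.16 (glmQLFit, glmQLFTest, R 4.3.3), two-sided. p was adjusted by Benjamini-Hochberg over 5872 genes within each of 15 comparisons and called under 0.05. The SE is the log2 fold change over the square root of F. The fit was tested on simulated data. Near-identical copies were sought with blastn 2.17.0 against the GENCODE M21 transcripts. Alternatives were other scalings, no filter, DESeq2 1.42.0, limma 3.58.1 on the deposited log2 values, a robust prior, added copies, the run as a factor, run pairs, and each library left out.

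The members, gene lists and tests were chosen with earlier results of these data known. Named were all members, other mitochondrial genes, their copies with counts, called list genes and the 5 genes most and least like the members. After group means were removed, the median correlation across genes was 0.156 between libraries of a run and −0.071 between runs.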

Additional observations from a re-analysis of the deposited data

Results flagged for a closer look

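Of 96 groups of 4 values checked, 4 had 1 library far from the other 3, where chance sets apart about 1 group in 20. In PparDA on the high-fat diet, library 8 held 12000 CPM of mt-Nd1, and the nearest of the others held 15000 CPM. In PparD on the high-fat diet, library 20 held 168 CPM of mt-Nd5 and the next library 263 CPM. In PparA on the control diet, the 10 messages made up 15.9% of the counts of library 21, against 14% in the nearest of the other 3. In WT on the high-fat diet, Gm29216 took 93% of the counts on mt-Co1 and its copy in library 2, against 94.4 to 94.5% in the others.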

How the results depend on the processing

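Over 150 combinations of a message and a comparison, 3670 alternative values were computed: 3641 kept their side of the threshold, 12 lost a call, 17 gained one and 0 reversed a called direction. Another 229 changed sign with no call in either setting. The members called stayed at 0 in each diet comparison under every alternative. In PparD against WT on the control diet 1 was called with no filter and 1 by DESeq2 (mt-Nd3), where 85 and 17 of all genes were. In PparA against WT on the control diet DESeq2 called 1, the replicate block (library-number run) 2, and leaving out 1 library gave 0 to 1. Of all genes, DESeq2 called 43 and the replicate block 53, and 40 were called without library 5. In PparDA against WT on the control diet the member count was 0 with library totals, no filter, limma, only the groups compared, within runs 1 and 3 and within runs 2 and 4. It was 2 with the replicate block, and 0 to 1 with 1 library left out. Of all genes, 109, 327, 118, 98, 38 and 58 were called in the settings with 0 members, in that order, and 165 with the replicate block. Where leaving out 1 library lost the call, 57 to 83 genes were called. In PparA against WT on the high-fat diet the member count was 1 with no filter and 1 with the replicate block (mt-Co1), where 288 and 93 of all genes were called. In PparDA against WT there it was 1 by DESeq2 and 1 with the replicate block, where 102 and 128 of all genes were called. For the diet in PparA less WT the member count was 1 with no filter, where 80 of all genes were called. Between run pairs the member count was 3 with library totals, 2 with limma, and 1 to 2 with 1 library left out. Of all genes, 152 were called with library totals and 159 with limma. Without library 4 or 28, which gave 2 members, 144 and 159 were called. The replicate block changed no other member count. With the copies added, the members' share in PparA on the high-fat diet was 14.92% in place of 14.06%. Within run pairs, each arm has 2 libraries. The cause of these changes was not tested.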
